A study of Mus musculus with 18 samples.

Results

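The genes described here are 37 vascular endothelial and blood-retina barrier genes, taken by symbol from a list of members and found, all of them, among the 35006 gene names of 18 mouse retina RNA-seq libraries. They fall into 6 roles: junction and adhesion proteins, growth factor receptors, the Norrin and Frizzled-4 pathway, transcription factors, transport proteins, and surface, secreted and signalling proteins. The choice by symbol takes in no expression value, but the list was drawn up with earlier results of these data known.

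Retinas came from male mice of 4 groups: normoglycemic C57BL/6J (WT, n = 3), WT given NACET (n = 6), diabetic C57BL/6-Ins2Akita/J (Akita, n = 4) and Akita given NACET (n = 5). From week 4 to week 24 the treated mice drank water with NACET, the ethyl ester of N-acetylcysteine (0.33 mg/mL, or 50 mg/kg a day), and the others plain water. Akita mice carry 1 copy of a mutant Ins2 allele whose misfolded insulin 2 damages the beta cells of the pancreas, so the model is a monogenic, insulin-deficient diabetes and is not specific to the retina or its vessels. The labels do not say whether each library came from a separate mouse, and the p-values therefore measure only the spread between these libraries.

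The inner blood-retina barrier is formed by the endothelium of the retinal capillaries, which is sealed by tight junctions and adherens junctions, lacks fenestrae and keeps transcytosis low. Norrin, a ligand made by Mueller glia, acts on the endothelium through the receptor Frizzled-4 with the co-receptor LRP5 and the co-activator TSPAN12, and the beta-catenin signal that follows maintains claudin-5 and suppresses the fenestral protein PLVAP. Diabetes is known for thickened capillary walls, loss of pericytes and leakage in this vascular bed.

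The libraries held between 11495596 and 17814479 reads assigned to genes, and 16183 genes passed the filter on low counts, 32 of the members among them. Replicates of a group all differed by more than sampling noise. Lens markers summed to over 100 CPM (counts scaled by library size) in 4 libraries (WT + NACET 5, Akita 2, Akita + NACET 3 and Akita + NACET 5), and those for rod photoreceptors were highest in Akita 4.

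The members covered a wide range of levels per length (CPM per kilobase of exon, RPKM, means over 18 libraries). Tspan12 was highest at 16.1 RPKM, followed by Cav1 at 12.6, Kdr at 10.1, Tjp1 at 6.46, Fzd4 at 5.86, Plvap at 5.38, Flt1 at 5.20 and Ndp at 3.92. Several genes that define endothelium sat far lower, with Cldn5 at 0.957 RPKM, Pecam1 at 0.490, Tek at 0.266, Tie1 at 0.131 and Cdh5 at 0.0833. Other endothelial genes lay between, such as Esam at 2.14 RPKM, Slco1a4 at 1.93 and Egfl7 at 1.89. In all, 14 members had a mean of 1 RPKM or more and 23 were below it, a division chosen after the values were seen. The endothelium is a small part of a whole retina, and several of the higher members, such as Tjp1, Ndp and Cav1, are also known from glia, neurons or pigment epithelium.

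**Figure D1:**
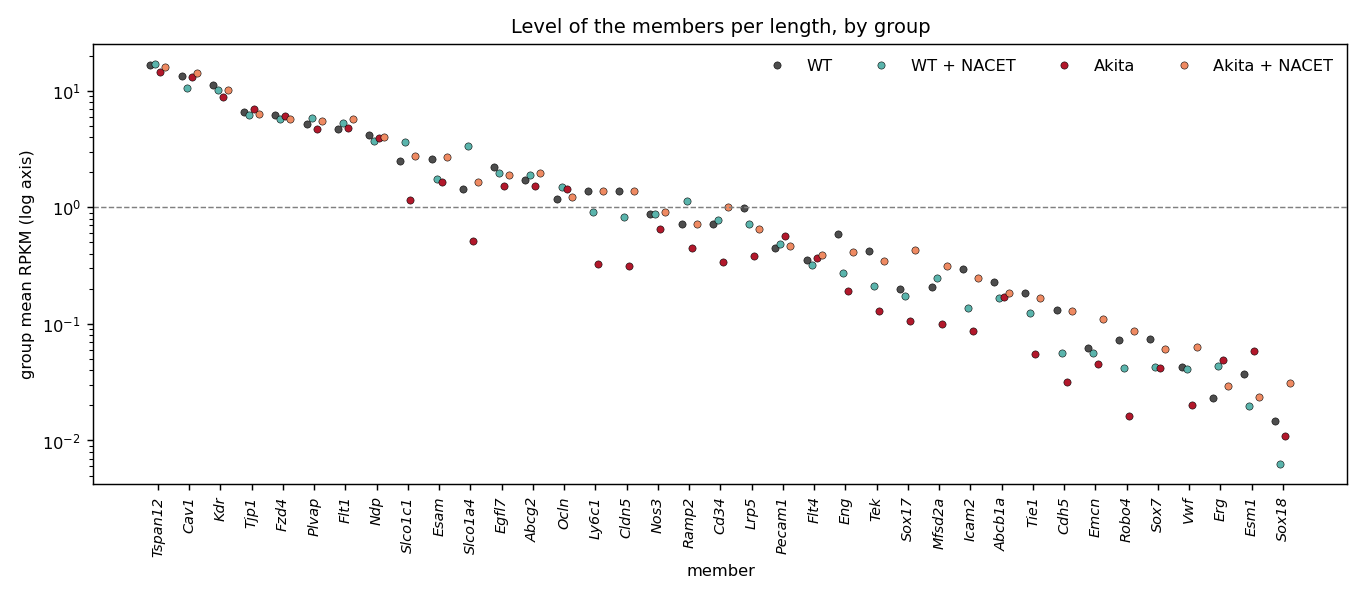
Mean RPKM of each of the 37 members in the 4 groups on a log axis, ordered by the mean over all libraries, with a dashed line at 1 RPKM. Above the line the groups nearly coincide for genes such as Tspan12 and Fzd4, whereas the Akita points lie under the others for Slco1a4, Cldn5 and Cd34.

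Comparing Akita with WT asks what diabetes did to these transcripts. Cldn5, the main claudin of barrier endothelium, was 4.31-fold lower in Akita, Eng, which encodes the TGF-beta co-receptor endoglin, was 3.004-fold lower, and Lrp5 was 2.53-fold lower. These 3 members were called (edgeR adjusted p of 0.0365, 0.0389 and 0.0354), all lower in Akita, against 7.64% of all tested genes called in either direction and 3.68% called lower. The 32 tested members ranged from a log2 fold change of -2.11 to 0.35. The fold changes were below 0 for 27 of 32 members, against 51.6% of all tested genes, with a median of -0.57 for the members and -0.01 for all genes. In bulk retina, fewer endothelial cells and less RNA per endothelial cell cannot be told apart.

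The negative changes were larger among the members of low level. Among the 18 tested members below 1 RPKM the median log2 fold change was -1.05, while the 3479 tested genes of any kind below 1 RPKM had a median of -0.29. Of these 3479 genes 70.3% were below 0, as were 16 of the 18 members. Among the 14 members at or above 1 RPKM the median was -0.14, beside 0.03 for all such genes. The Akita and WT libraries did not overlap for 6 members, all lower in Akita (Cldn5, Lrp5, Mfsd2a, Slco1a4, Slco1c1 and Eng), and 23.2% of all tested genes did not overlap, in either direction. The 3 calls rested on few libraries. Of the 32 members 10 had an unadjusted p below 0.05, as had 27.0% of all tested genes. By edgeR, 0 members were called without WT 1, WT 2, Akita 1 or Akita 4, nor in a fit of the WT and Akita libraries only. Without Akita 3, 1 was called. Unadjusted p was below 0.05 for 7 of 33 members without WT 1 (3021 of 16485 genes) and 4 of 32 without WT 2 (3241 of 16432). It was below 0.05 for 9 of 32 without Akita 1 (4192 of 16175) and 5 of 32 without Akita 4 (3445 of 16197). In the fit of both groups only it was below 0.05 for 8 of 26 (3543 of 15334). The share of all genes called also fell, to 0.0% without WT 1 or WT 2, 5.37% without Akita 1, 1.44% without Akita 4, 0.965% in the fit of both groups only and 6.52% without Akita 3.

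Comparing Akita + NACET with Akita asks what the treatment did in diabetic mice. Cldn5 was 4.41-fold higher with NACET, Sox17, a transcription factor of arterial endothelium, was 3.84-fold higher, Slco1a4, an organic anion transporter of barrier endothelium, was 3.14-fold higher, and Cd34, a sialomucin of capillary endothelium, was 2.95-fold higher. These 4 members were called, all higher (edgeR adjusted p of 0.0239, 0.034, 0.041 and 0.0297), against 9.65% of all tested genes called and 4.51% called higher. The log2 fold change was above 0 for 28 of 32 members, against 49.6% of all genes, with a median of 0.69. This comparison and the one before it share the 4 Akita libraries, so the opposite signs are not separate observations.

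Here too the changes were larger among the low members, whose median was 1.42 for the 18 below 1 RPKM (0.23 for all tested genes of that range) and 0.21 for the 14 at or above it (-0.04 for all such genes). Below 1 RPKM the change was above 0 for 17 of the 18 members and for 68.3% of all tested genes. Without overlap of the groups, 3 members were higher with NACET (Cldn5, Abcg2 and Ly6c1), beside 6.69% of all tested genes. DESeq2 over all groups called 7 members, adding Esam, Slco1c1 and Vwf, and 15.8% of all genes. In edgeR 15 members had an unadjusted p below 0.05, beside 29.0% of all genes. By edgeR, 0 members were called without Akita 3, Akita 4, Akita + NACET 2 or the 4 libraries with lens transcripts. The calls fell to 1 without Akita + NACET 4 or 5 and to 2 without Akita 1. Unadjusted p was below 0.05 for 13 of 32 members without Akita 3 (4315 of 16129 genes) and 9 of 32 without Akita 4 (3813 of 16197). It was below 0.05 for 11 of 32 without Akita + NACET 2 (4020 of 16097) and 16 of 32 without the 4 libraries (3457 of 15920). The share of all genes called was 6.15% without Akita 3, 0.00617% (1 gene) without Akita 4, 2.64% without Akita + NACET 2 and 0.0% without the 4 libraries. It was 5.41% and 0.626% without Akita + NACET 4 or 5 and 5.0% without Akita 1.

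**Figure D2:**
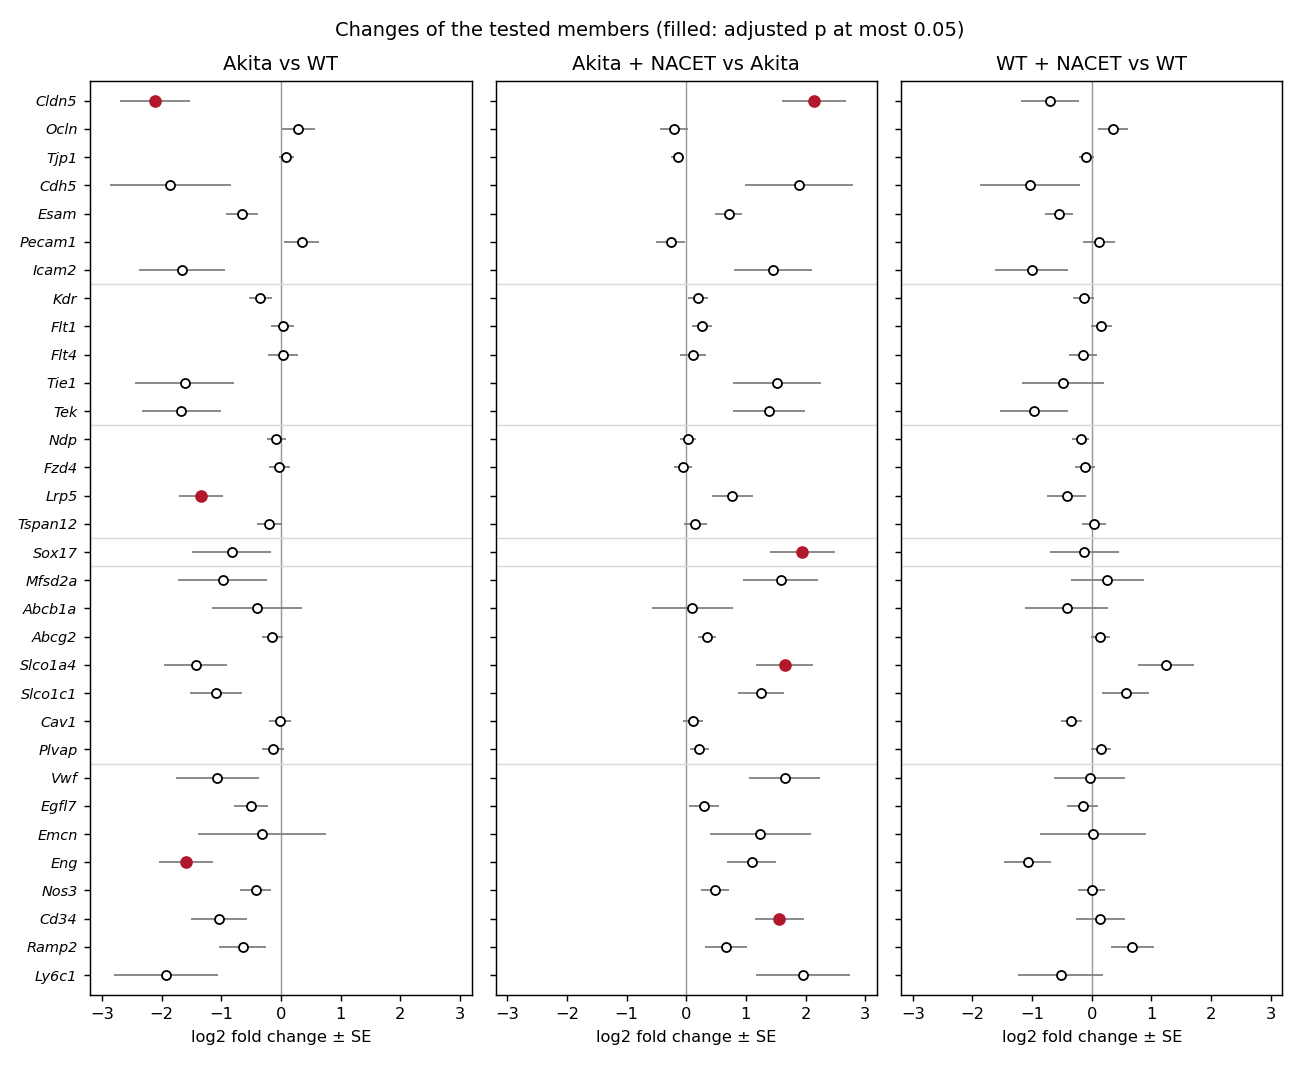
Log2 fold change with its SE for the 32 tested members, grouped by role, in 3 comparisons, with filled points for an edgeR adjusted p of at most 0.05. Members with long bars are those of low count. The filled points are 3 genes in Akita vs WT, all left of 0, and 4 genes in Akita + NACET vs Akita, all right of 0, with none in WT + NACET vs WT.

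In WT mice NACET gave no called member (edgeR, lowest adjusted p of 0.15), against 1.48% of all genes. Unadjusted p was below 0.05 for 3 members (19.5% of all genes), with Slco1a4 higher and Esam and Eng lower, and DESeq2 called 0 members. Akita + NACET and WT also had no called member by edgeR or DESeq2, with 0 at unadjusted p below 0.05 in edgeR (4.63% of all genes) and 0.00618% of all genes called, 1 gene. The members' median there was 0.05. For Akita + NACET against WT + NACET, edgeR called 0 members (5 at unadjusted p below 0.05, beside 31.1% of all genes) while 13.3% of all genes were called. DESeq2 over all groups called Esam and Cav1, both higher in Akita + NACET, and 17.6% of all genes. In edgeR 2 members were called without Akita + NACET 1 or WT + NACET 4 (11.4% and 11.6% of all genes), and 1 without Akita 3, Akita 4, WT + NACET 1 or WT + NACET 2 (13.5% to 16.7%).

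The interaction, the NACET effect in Akita minus that in WT, was called for 3 members, all positive: Cldn5 with a log2 difference of 2.83 ± 0.72 (SE, edgeR adjusted p of 0.0124), Eng with 2.17 ± 0.57 (0.0146) and Esam with 1.26 ± 0.33 (0.0144). Across all genes 20.3% were called, 10.1% positive. The difference was above 0 for 28 of 32 members, against 50.3% of all genes. Below 1 RPKM it was above 0 for 16 of 18 members and for 64.9% of all tested genes, with medians of 1.55 and 0.29. At or above 1 RPKM it was above 0 for 12 of 14 members and for 45.9% of all tested genes, with medians of 0.21 and -0.05. The log2 fold change with NACET was -0.69 for Cldn5, -1.07 for Eng and -0.55 for Esam in WT and 2.14, 1.09 and 0.71 in Akita, and of these 6 changes that of Cldn5 in Akita was called. Single libraries moved the count, which was 10 without WT 3, 8 without WT + NACET 4, 6 without Akita 2 and 5 without Akita + NACET 3, while 19.4% to 21.9% of all genes were called in these 4 fits. The interaction of Eng was lost without WT 2, and that of Esam without the 4 libraries with lens transcripts.

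Cldn5 had the widest swing of the junction genes. It lies on chromosome 16 from 18776940 to 18778353, plus strand, in the NCBIM37 build of the annotation. Its level was 2.30, 2.56 and 0.963 CPM in the WT libraries, 0.491, 0.579, 0.126 and 0.580 CPM in Akita, and 2.41, 2.77, 1.53, 2.30 and 0.784 CPM in Akita + NACET. All 4 Akita libraries were below every WT and every Akita + NACET library. In WT + NACET it ran from 0.304 through a median of 0.940 to 2.44 CPM and overlapped every other group. The change was -2.11 ± 0.59 (log2, SE) in Akita vs WT and 2.14 ± 0.54 in Akita + NACET vs Akita. These levels stand on few reads, between 2 and 47 in a library.

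**Figure D3:**
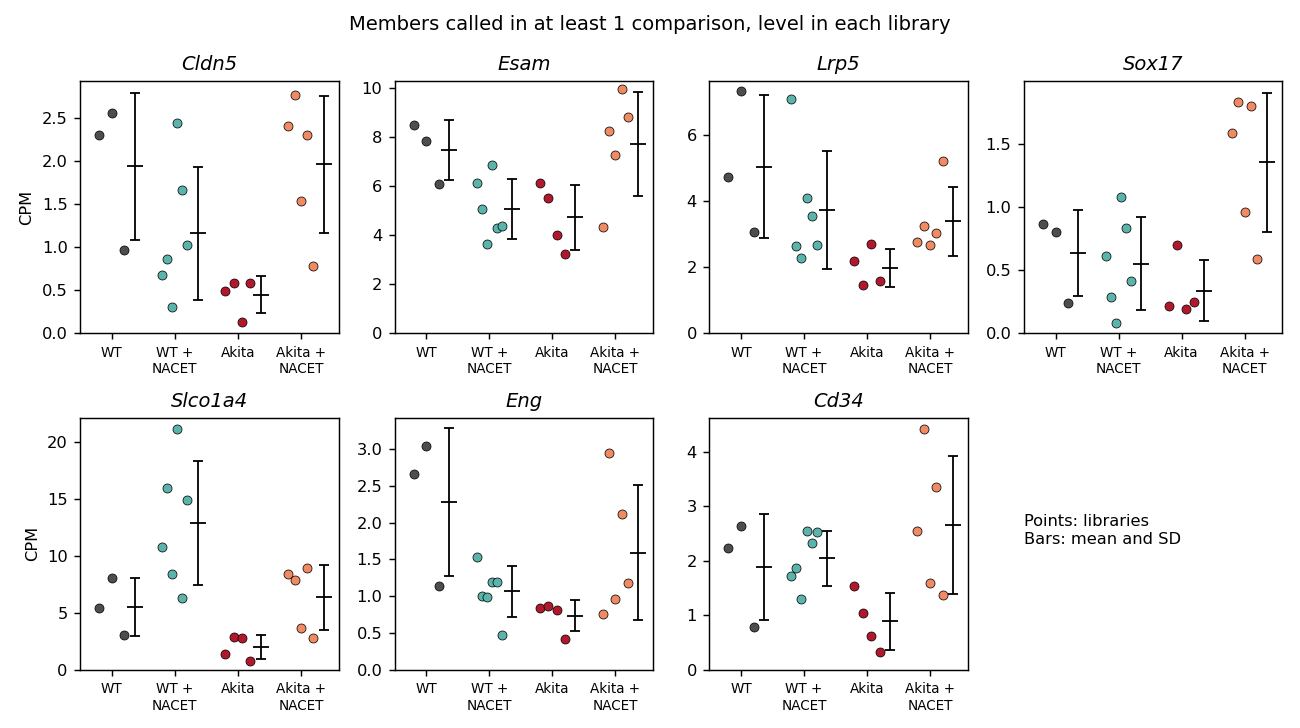
CPM in each library (points) with the mean and SD of each group (bars) for the 7 members called in at least 1 comparison, on linear axes from 0. In Cldn5 the Akita points all lie at or below 0.580 CPM, and in Slco1a4 the WT + NACET points reach 21.1 CPM.

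The promoters of called members are shown because the results turn on these genes. RefSeq promoter windows (250 bases before to 50 after the start site, build GRCm38.p6, a different build from the counts) were held for 25 of the 37 members, and for Cldn5, Eng, Cd34 and Slco1a4 of the 7 called; Sox17, Lrp5 and Esam had no entry. Capitals mark matches on either strand to AGGAAG or CTTCCT, the core bound by ETS factors such as ERG, to ACAAT or ATTGT, the core bound by SOX factors, and to TGACNNNGC or GCNNNGTCA, the core of the antioxidant response element bound by NRF2. The sequences read 5′ to 3′ on the strand of the gene.
Cldn5 (chr16:18776597-18776896, plus strand): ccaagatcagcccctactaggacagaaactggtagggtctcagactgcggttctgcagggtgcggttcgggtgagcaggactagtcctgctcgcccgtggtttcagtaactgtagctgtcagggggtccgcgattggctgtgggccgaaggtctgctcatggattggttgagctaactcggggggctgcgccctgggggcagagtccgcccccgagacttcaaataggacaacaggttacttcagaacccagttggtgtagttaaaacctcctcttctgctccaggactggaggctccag
Eng (chr2:32646345-32646644, plus strand): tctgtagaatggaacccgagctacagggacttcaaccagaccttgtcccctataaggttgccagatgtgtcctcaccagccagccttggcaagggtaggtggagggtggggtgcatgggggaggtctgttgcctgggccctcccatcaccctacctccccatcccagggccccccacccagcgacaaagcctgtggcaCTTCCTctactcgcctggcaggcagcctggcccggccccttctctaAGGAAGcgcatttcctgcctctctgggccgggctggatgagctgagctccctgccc
Cd34 (chr1:194938571-194938870, plus strand): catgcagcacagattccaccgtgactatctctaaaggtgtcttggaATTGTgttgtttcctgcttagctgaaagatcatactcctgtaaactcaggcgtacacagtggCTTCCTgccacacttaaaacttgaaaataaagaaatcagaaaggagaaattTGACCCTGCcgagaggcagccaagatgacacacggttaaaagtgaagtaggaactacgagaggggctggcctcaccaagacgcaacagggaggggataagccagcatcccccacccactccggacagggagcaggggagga
Slco1a4 (chr6:141856171-141856470, minus strand): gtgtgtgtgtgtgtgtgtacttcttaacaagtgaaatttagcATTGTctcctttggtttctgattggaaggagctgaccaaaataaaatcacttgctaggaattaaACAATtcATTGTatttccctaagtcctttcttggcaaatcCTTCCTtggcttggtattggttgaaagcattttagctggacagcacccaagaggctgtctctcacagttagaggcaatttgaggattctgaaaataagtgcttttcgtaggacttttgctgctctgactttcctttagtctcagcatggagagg

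Eng held 2 ETS cores, starting 52 and 6 bases before the start site. Cd34 held 1 match to each of the 3 cores, and Slco1a4 held 1 ETS and 3 SOX cores. The window of Cldn5 held none of these letters, which says nothing about binding elsewhere. Of 32851 mouse promoter windows 35.4% held the ETS core, 31.0% the SOX core and 12.4% the antioxidant response element core. The 25 members with an entry had 34 windows, some genes having several start sites, of which 18 held the ETS core, 8 the SOX core and 4 the antioxidant response element core. None of the matches overlapped a match to another core in the 4 windows printed, and a match is a description of letters and not a site.

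Esam, an adhesion molecule of endothelial tight junctions (chromosome 9, 37335663 to 37345904, plus strand, NCBIM37), was at 8.47, 7.83 and 6.08 CPM in WT, 6.10, 5.50, 4.02 and 3.23 CPM in Akita, and 4.34, 8.25, 7.27, 9.94 and 8.82 CPM in Akita + NACET. Akita 1 lay just above the lowest WT library, and 4 of the 5 Akita + NACET libraries were above every Akita library. WT + NACET ran from 3.64 through 4.72 to 6.87 CPM. The change in Akita vs WT was -0.65 ± 0.26 (edgeR adjusted p of 0.116) and in Akita + NACET vs Akita 0.71 ± 0.23 (0.0566), neither past the threshold.

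Cdh5 encodes VE-cadherin, the adherens junction protein that defines endothelium. It was at 0.862, 0.640 and 0.0602 CPM in WT, 0.0701, 0.290, 0.0628 and 0.0829 CPM in Akita, and 0.138, 0.766, 0.255, 0.932 and 0.457 CPM in Akita + NACET, with 0, 0.102 and 0.738 CPM as the lowest, median and highest of WT + NACET. WT 3 was as low as the Akita libraries, so the groups overlapped. The fold changes were of the size of those of Cldn5 (-1.86 ± 1.01 and 1.89 ± 0.90) but were not called (edgeR adjusted p of 0.246 and 0.171).

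Pecam1, which encodes the endothelial and platelet adhesion molecule CD31, gave another pattern. It was at 2.30, 2.08 and 1.38 CPM in WT, 2.38, 3.07, 1.70 and 2.57 CPM in Akita, 2.69, 2.48, 1.47, 2.05 and 1.44 CPM in Akita + NACET, and 1.64, 1.91 and 3.06 CPM as the lowest, median and highest of WT + NACET. All groups overlapped, and the interval of the log2 change in Akita vs WT reached from -0.22 to 0.91 (95%, 1.96 SE). Icam2, a ligand of leukocyte integrins, had group means of 0.559 CPM in WT and 0.165 CPM in Akita. For the widely expressed junction genes the intervals were narrower: from -0.16 to 0.34 for Tjp1, the scaffold ZO-1, and from -0.24 to 0.83 for Ocln, which encodes occludin. Neither was called in any comparison.

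Among the growth factor receptors, those for VEGF and those for angiopoietins gave different values. Kdr, the main signalling receptor for VEGF-A, was at 81.6, 93.0 and 70.7 CPM in WT, 70.2, 75.6, 49.3 and 61.5 CPM in Akita, 58.4, 79.6, 61.2, 69.0 and 100.4 CPM in Akita + NACET, and 62.1, 69.9 and 103 CPM as the lowest, median and highest of WT + NACET. Its groups overlapped, with a change of -0.35 ± 0.19 in Akita vs WT and 0.20 ± 0.17 in Akita + NACET vs Akita. Flt1, a decoy receptor for VEGF, had changes of 0.03 ± 0.19 and 0.27 ± 0.17, and Flt4, the receptor for VEGF-C, 0.04 ± 0.25 and 0.11 ± 0.22. Tek, the angiopoietin receptor, stood at 2.01 ± 0.83 CPM (mean ± SD) in WT, 1.003 ± 0.631 in WT + NACET, 0.603 ± 0.509 in Akita and 1.63 ± 0.705 in Akita + NACET. Its changes of -1.67 ± 0.66 and 1.38 ± 0.61 were not called by edgeR (adjusted p of 0.116 and 0.139), and DESeq2 over all groups called its interaction. Tie1, its co-receptor, had changes of -1.61 ± 0.83 and 1.52 ± 0.74, not called.

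Of the 4 Norrin pathway members the co-receptor gene Lrp5 was called, and the genes of the ligand, the receptor and the co-activator were not called in any comparison. Lrp5 (chromosome 19, 3584825 to 3686564, minus strand, NCBIM37) was at 4.74, 7.35 and 3.07 CPM in WT and 2.17, 1.45, 2.70 and 1.57 CPM in Akita. Every Akita library was below every WT library. In Akita + NACET it was at 2.76, 3.24, 2.68, 3.04 and 5.22 CPM, and in WT + NACET it ran from 2.28 through 3.11 to 7.12 CPM. The change was -1.34 ± 0.37 in Akita vs WT and 0.77 ± 0.34 in Akita + NACET vs Akita, the second not called (edgeR adjusted p of 0.135). The call in Akita vs WT was also lost without Akita 2 (-1.21, edgeR adjusted p of 0.0659). LRP5 is a Wnt co-receptor in many cell types.

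Ndp was at 8.26, 7.99 and 8.07 CPM in WT, 9.12, 7.64, 7.60 and 6.30 CPM in Akita, 7.92, 6.84, 8.998, 8.45 and 6.86 CPM in Akita + NACET, and 5.83, 6.90 and 8.73 CPM as the lowest, median and highest of WT + NACET. Fzd4 was at 19.2, 26.2 and 22.5 CPM in WT, 20.9, 18.1, 19.2 and 30.8 CPM in Akita, 19.98, 23.8, 16.02, 24.3 and 22.1 CPM in Akita + NACET, and 16.7, 21.8 and 23.7 CPM in WT + NACET. Both overlapped in all groups, and their intervals in Akita vs WT were -0.39 to 0.23 for Ndp and -0.37 to 0.31 for Fzd4. Tspan12 had a change of -0.19 ± 0.21, with its lowest level of 20.3 CPM in Akita 4 and 34.1 CPM or more in the other libraries.

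Of the 4 transcription factors only Sox17 had enough reads to be tested. It lies on chromosome 1 from 4481009 to 4486494, minus strand (NCBIM37). It was at 0.210, 0.695, 0.188 and 0.249 CPM in Akita and 1.58, 1.83, 0.957, 1.80 and 0.588 CPM in Akita + NACET. Akita 2 reached above the lowest Akita + NACET library, so the groups overlapped. WT libraries were at 0.862, 0.799 and 0.241 CPM, and WT + NACET ran from 0.0759 through 0.511 to 1.08 CPM. The change was 1.94 ± 0.55 in Akita + NACET vs Akita and -0.82 ± 0.66 in Akita vs WT, not called. Erg, the ETS factor that maintains endothelial identity, had group means from 0.0799 to 0.172 CPM, Sox7 from 0.139 to 0.245 CPM and Sox18 from 0.0102 to 0.0501 CPM, too few reads for a comparison.

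Of the transport genes Slco1a4 was the only member that edgeR called in the main fit of all 18 libraries. Other edgeR fits, such as that without Akita + NACET 3, also called Slco1c1 with NACET in Akita. Slco1a4 (chromosome 6, 141753961 to 141804720, minus strand, NCBIM37) was at 5.39, 8.07 and 3.01 CPM in WT, 1.40, 2.90, 2.83 and 0.746 CPM in Akita, and 8.41, 7.90, 3.70, 8.95 and 2.81 CPM in Akita + NACET. Every Akita library was below every WT library, and Akita + NACET 5 fell within the Akita range. WT + NACET ran from 6.30 through 12.8 to 21.1 CPM, with 4 of its 6 libraries above every library of the other groups and the other two within their range, a change of 1.25 ± 0.47 against WT that was not called (edgeR adjusted p of 0.165). The change was -1.43 ± 0.53 in Akita vs WT (0.0971) and 1.65 ± 0.48 in Akita + NACET vs Akita (0.041), where the call was also lost without Akita + NACET 1 (0.0616) or WT 1 (0.0514). Slco1c1, which carries thyroxine, had means of 6.73 ± 2.16 CPM (SD) in WT, 9.96 ± 4.32 in WT + NACET, 3.15 ± 0.895 in Akita and 7.502 ± 3.37 in Akita + NACET, and its changes of -1.09 ± 0.44 and 1.25 ± 0.39 missed the threshold (0.121 and 0.0519).

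Mfsd2a, the lipid transporter that keeps transcytosis low, was at 0.503, 0.480 and 0.421 CPM in WT and 0.0701, 0.290, 0.377 and 0.166 CPM in Akita, without overlap. In Akita + NACET it was spread from 0.0653 to 1.59 CPM (0.413, 1.59, 0.319, 1.12 and 0.0653), and in WT + NACET it was 0.368, 0.447 and 0.929 CPM at the lowest, median and highest. Its changes of -0.98 ± 0.74 and 1.58 ± 0.63 were not called. Plvap, the diaphragm protein of fenestrae and a sign of a leaky vessel when it appears in retinal capillaries, was at 11.99, 11.2 and 8.25 CPM in WT, 10.8, 9.96, 10.1 and 7.29 CPM in Akita, 11.03, 12.4, 10.8, 12.1 and 9.14 CPM in Akita + NACET, and 9.02, 12.2 and 13.7 CPM in WT + NACET. The groups overlapped, and its interval in Akita vs WT was -0.48 to 0.23. Choroidal capillaries also express Plvap, and the 10 markers of pigment epithelium and choroid varied from 90.7 to 1528 CPM in sum between libraries.

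The efflux pump genes and Cav1 were not called in any comparison by the main edgeR fit. Abcg2 was higher in all 5 Akita + NACET libraries (9.32 to 11.2 CPM) than in the 4 Akita libraries (5.22 to 9.05 CPM), a change of 0.35 ± 0.15 that was not called (edgeR adjusted p of 0.139). Abcb1a, which encodes P-glycoprotein, had changes of -0.40 ± 0.76 and 0.10 ± 0.68, and 15.5% of its 50-base windows recur in Abcb1b, so its counts are uncertain. Cav1, the coat protein of caveolae, had a change of -0.02 ± 0.19 in Akita vs WT. It was 0.43 ± 0.15 higher in Akita + NACET than in WT + NACET (edgeR adjusted p of 0.0584). Some other edgeR fits, such as that without Akita + NACET 1, called this difference.

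In the last group of members Eng and Cd34 were called. Eng (chromosome 2, 32502115 to 32538189, plus strand, NCBIM37, its exons overlapping Ak1 and Fpgs in part) was at 2.66, 3.04 and 1.14 CPM in WT and 0.842, 0.869, 0.816 and 0.414 CPM in Akita. All Akita libraries were below all WT libraries. It was at 0.758, 2.95, 0.957, 2.11 and 1.18 CPM in Akita + NACET and ran from 0.477 through 1.09 to 1.53 CPM in WT + NACET. The change was -1.59 ± 0.45 in Akita vs WT and 1.09 ± 0.41 in Akita + NACET vs Akita (edgeR adjusted p of 0.0898 for the latter).

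Cd34 (chromosome 1, 196765015 to 196787486, plus strand, NCBIM37) was at 1.54, 1.04, 0.628 and 0.332 CPM in Akita and 2.55, 4.42, 1.60, 3.36 and 1.37 CPM in Akita + NACET. The ranges touched only between Akita 1 and Akita + NACET 5. WT was at 2.23, 2.64 and 0.783 CPM and WT + NACET ran from 1.29 through 2.09 to 2.55 CPM. The change was 1.56 ± 0.42 in Akita + NACET vs Akita and -1.04 ± 0.48 in Akita vs WT, not called (edgeR adjusted p of 0.165).

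The other members of that group were not called by the main edgeR fit. Ly6c1, a surface antigen of brain and retinal endothelium, had changes of -1.92 ± 0.87 and 1.95 ± 0.79, and 31.9% of its 50-base windows recur in Ly6c2, so its counts are uncertain. Vwf, the von Willebrand factor of endothelial storage granules, had changes of -1.07 ± 0.70 and 1.65 ± 0.60. The nitric oxide synthase gene Nos3 (-0.42 ± 0.26 and 0.48 ± 0.23) overlaps Atg9b, a gene of the other strand, and reads were counted without strand. Ramp2, a partner of the adrenomedullin receptor (-0.64 ± 0.40 and 0.67 ± 0.35), shares 73.8% of its windows with Vps25, so its counts are uncertain. Egfl7, a secreted factor of endothelium, had changes of -0.51 ± 0.29 and 0.30 ± 0.25, and the sialomucin gene Emcn of -0.31 ± 1.07 and 1.24 ± 0.85. Robo4 and the tip cell gene Esm1 were too low to test, with group means from 0.0665 to 0.354 CPM and from 0.0414 to 0.123 CPM.

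**Figure D4:**
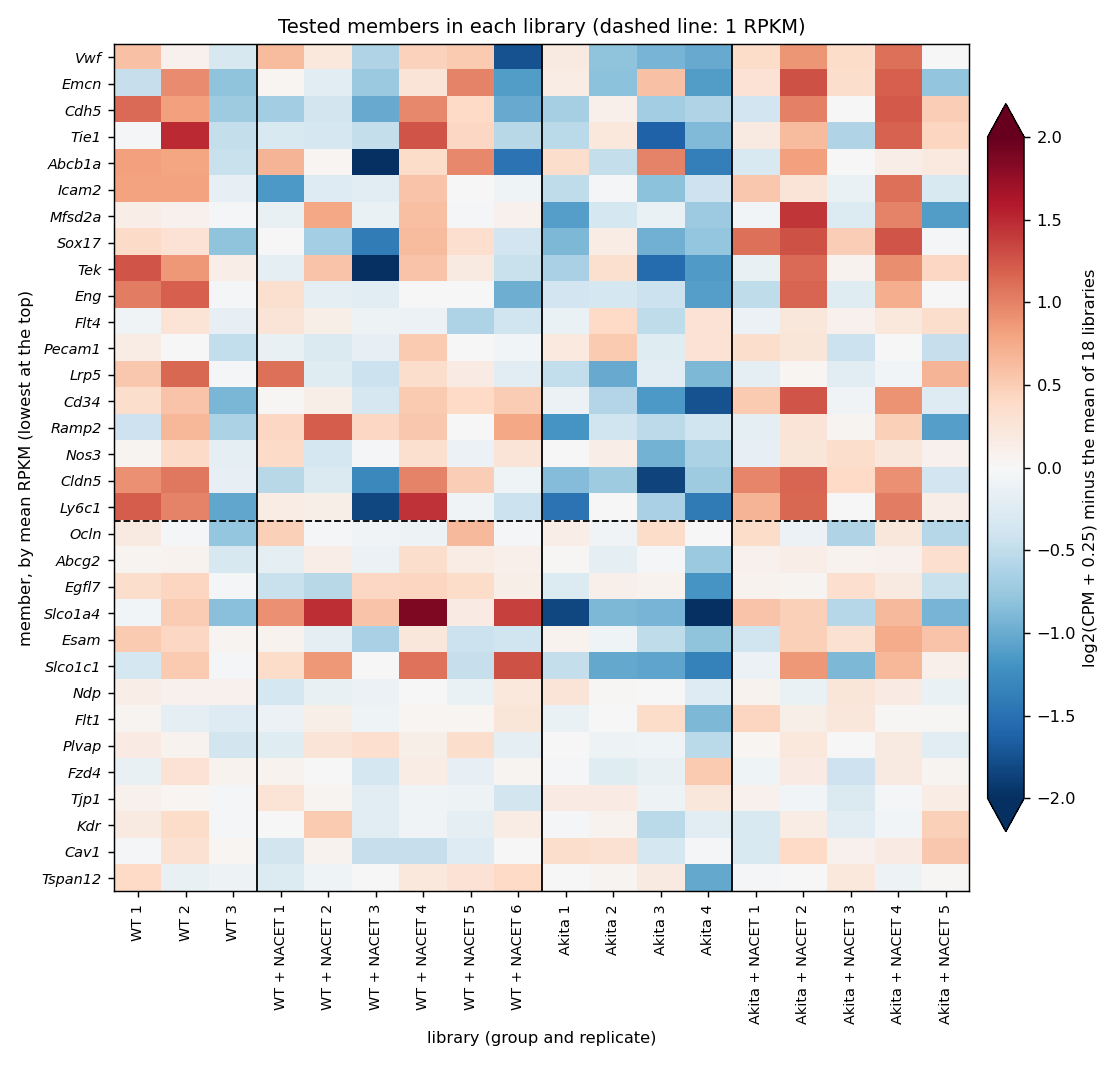
Log2(CPM + 0.25) of the 32 tested members (rows, lowest mean RPKM at the top) in each of 18 libraries (columns), minus the member's mean over the libraries, with the colour scale ending at -2 and 2. Above the dashed line at 1 RPKM whole columns are pale or dark together, such as WT 2, WT + NACET 4, Akita + NACET 2 and Akita + NACET 4 in red and Akita 4 in blue. Below the line most rows are pale, other than Slco1a4 and Slco1c1.

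The low members varied together from library to library, also within groups. Their 23 values summed to 42.2 CPM in WT 2 and 18.2 CPM in WT 3, and to 40.8 CPM in Akita + NACET 2 and 24.4 CPM in Akita + NACET 3. Of the 18 that were tested, 18 were above their median of all libraries in Akita + NACET 2, 17 in WT 2 and in WT + NACET 4, and 1 in WT + NACET 3. The spread was therefore shared by the members, which are not replicates of each other. By group the sum was 31.3 ± 12.2 CPM (SD) in WT, 26.4 ± 6.42 in WT + NACET, 17.7 ± 3.09 in Akita and 31.0 ± 7.98 in Akita + NACET. The 14 higher members summed to 355.9 ± 32.0, 352.0 ± 32.2, 322.4 ± 34.8 and 361.4 ± 24.0 CPM in the same order.

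By group, the share of uniquely aligned reads outside exons was higher in WT and Akita + NACET than in the other two, as was the sum of the low members. It was 16.3 ± 1.24% (SD) in WT, 12.7 ± 2.74% in WT + NACET, 11.5 ± 1.83% in Akita and 16.4 ± 2.11% in Akita + NACET. It was lowest in WT + NACET 6 (9.55%), Akita 3 (9.67%), Akita 4 (10.2%) and WT + NACET 3 (10.4%), and the low members summed to 22.2, 15.4, 14.9 and 17.4 CPM there. Single libraries did not all follow: Akita + NACET 5 had the highest share (19.8%) with 24.7 CPM of the low members, and the higher members summed to 380.7 CPM in WT + NACET 6. With this share as a covariate edgeR called 0 members in all 6 comparisons. It called 0.0% of all genes in Akita vs WT and in Akita + NACET vs Akita. Unadjusted p was below 0.05 for 3 of 32 members in Akita vs WT, beside 2022 of 16183 genes. In Akita + NACET vs Akita it was below 0.05 for 5 of 32, beside 1281 of 16183. The median change of the members was then -0.41 in Akita vs WT and 0.34 in Akita + NACET vs Akita. The share did not overlap between Akita (9.67% to 13.3%) and WT (14.9% to 17.1%) or Akita + NACET (14.3% to 19.8%). In these 2 comparisons the fit therefore cannot tell the share from genotype or treatment. The part of the share in the results was not tested.

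**Figure D5:**
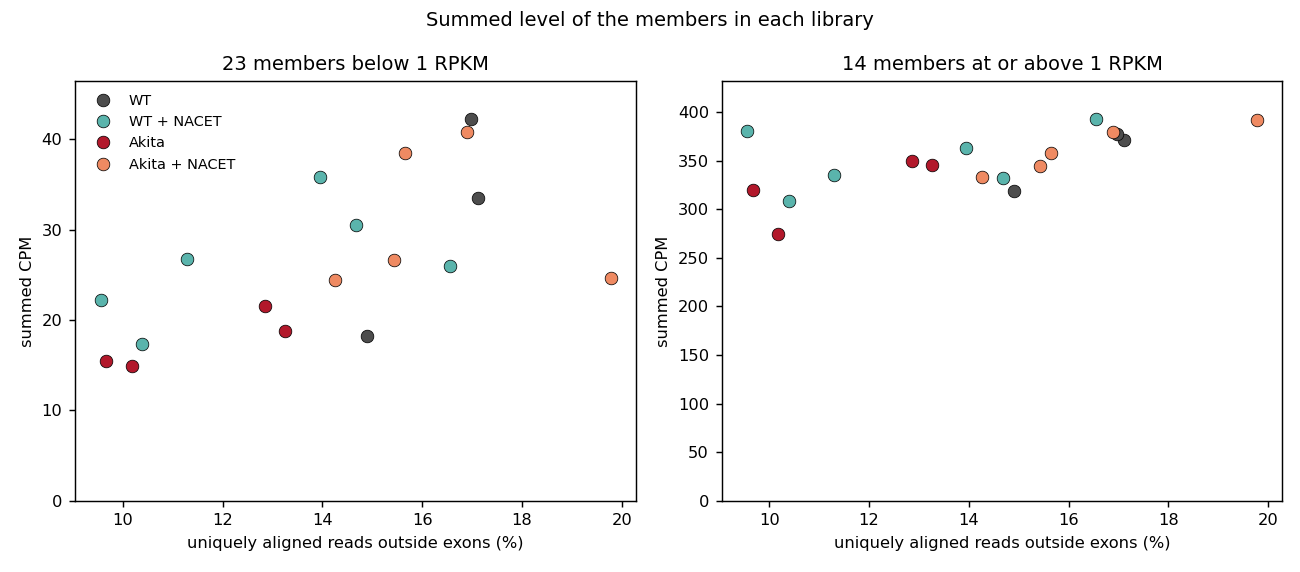
Summed CPM of the 23 members below 1 RPKM (left) and of the 14 at or above it (right) against the percent of uniquely aligned reads outside exons, 1 point per library, coloured by group, with the vertical axes starting at 0. On the left the 4 Akita libraries lie between 14.9 and 21.5 CPM, and on the right all libraries lie between 274.3 and 392.6 CPM.

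Genes of other cell types were called as well. Of all tested genes 7.64% were called in Akita vs WT and 9.65% in Akita + NACET vs Akita. The 8 markers of rods summed to 109170 ± 18570 CPM (SD) in WT, 158170 ± 32837 in Akita and 108060 ± 12195 in Akita + NACET. All 8 were tested, of which 3 were called higher in Akita and 5 lower with NACET in Akita. Akita 4, with 206490 CPM of rod transcripts, had the lowest sum of the low members. The 15 markers of pericytes and smooth muscle summed to 1197 ± 175.5 CPM in WT, 1580 ± 161.3 in Akita and 1180 ± 158.0 in Akita + NACET. They were highest in Akita, where the sum of the low members was lowest. The pericyte and smooth muscle sum was mostly Vtn, which photoreceptors also express. Of the 12 of them that were tested, Pdgfrb, the receptor that defines pericytes, was called lower in Akita (-1.08 ± 0.32) and higher with NACET in Akita (1.01 ± 0.29). Notch3 (1.60 ± 0.42) and Higd1b (2.35 ± 0.62) were also called higher with NACET in Akita, and Vtn was called lower (-0.45 ± 0.12). The markers of pigment epithelium and choroid also moved by group with the low members, apart from WT + NACET: they summed to 446.2 ± 429.5 CPM in WT, 1049 ± 313.8 in WT + NACET, 150.0 ± 93.7 in Akita and 472.4 ± 284.5 in Akita + NACET. Their median log2 change was -1.36 in Akita vs WT and 0.73 in Akita + NACET vs Akita. Beside these, the medians were -1.05 and 1.42 for the 18 tested low members and -0.57 and 0.69 for all 32. Of these 10 markers 0 were called in either comparison. Of the red blood cell genes, the globin gene Hbb-b2 (2.18 ± 0.47) and Alas2, which encodes the heme synthesis enzyme of red cells (1.43 ± 0.40), were called higher with NACET in Akita. Hbb-b2 was at 1.66 ± 0.348 CPM in WT, 1.495 ± 0.685 in Akita and 6.84 ± 4.36 in Akita + NACET, and Alas2 at 1.83 ± 0.218, 1.26 ± 0.565 and 3.45 ± 1.15. Globin genes are near-identical copies, so the counts of Hbb-b2 are uncertain. Bipolar and amacrine markers had a median change of -0.50 in Akita vs WT and 0.30 with NACET in Akita, and 2 of 8 tested were called lower in Akita. Ganglion cell markers had medians of -0.37 and 0.28, with 0 called. Cone, Mueller glia, microglia and astrocyte markers had medians of 0.28, -0.25, -0.09 and 0.14 in Akita vs WT. With NACET in Akita they had -0.46, -0.07, -0.07 and 0.001. The astrocyte marker Aqp4 was called lower in Akita (-0.54 ± 0.13). The part of these cell types in the endothelial differences was not tested.

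Endothelial genes outside the members were read in the same way. Of 28 such genes 21 were tested, with a median change of -0.70 in Akita vs WT and 0.57 in Akita + NACET vs Akita. In Akita vs WT 1 was called higher and 1 lower, beside 7.64% of all tested genes called. In Akita + NACET vs Akita 2 were called higher and 1 lower, beside 9.65%. In Akita, S1pr1, the sphingosine-1-phosphate receptor, was called lower (-0.63 ± 0.18) and Podxl, a sialomucin that podocytes and neurons also make, was called higher (0.74 ± 0.18). With NACET in Akita, Eltd1, an adhesion receptor of vessels (1.995 ± 0.49), and Klf2, a flow-induced factor (1.83 ± 0.56), were called higher and Podxl lower (-0.56 ± 0.16). S1pr1 was also called lower with NACET in WT (-0.73 ± 0.16), where 1.48% of all tested genes were called.

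The counts for the following lists stand beside 7.64% of all tested genes called in Akita vs WT and 9.65% in Akita + NACET vs Akita. Of 18 tested genes of VEGF, angiopoietin and Notch signalling, 1 was called in Akita vs WT, Nrp2 (-0.90 ± 0.23), and 2 in Akita + NACET vs Akita, Vegfa (0.67 ± 0.17) and Nrp1 (0.54 ± 0.15), both higher. Vegfa is the main ligand of Kdr, and the neuropilins are its co-receptors. Of 14 tested Wnt genes 1 was called in each, Reck, which with GPR124 relays WNT7 signals in brain endothelium, lower in Akita (-0.79 ± 0.23) and higher with NACET (0.93 ± 0.21). Of 19 tested junction genes Jam2 was called higher in Akita (0.41 ± 0.10), and Jam2 (-0.45 ± 0.09) and Ctnna1 (-0.38 ± 0.11) lower with NACET. Of 11 tested barrier transporters the taurine transporter gene Slc6a6 was called higher in Akita (0.87 ± 0.19) and lower with NACET (-0.85 ± 0.17), and the transferrin receptor gene Tfrc lower with NACET (-0.66 ± 0.14). Of 5 tested leukocyte adhesion genes Cx3cl1, which encodes fractalkine, was called lower in Akita (-0.74 ± 0.17) and higher with NACET (0.58 ± 0.15). The lists for junctions and transporters had medians of -0.04 and 0.06 in Akita vs WT. Those for Wnt signalling, for VEGF, angiopoietin and Notch signalling and for leukocyte adhesion had -0.21, -0.23 and -0.48. Beside them, the median was -0.14 for the 14 higher members, -1.05 for the 18 tested low members and -0.57 for all 32.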

How the data were processed

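Retinal RNA of 18 libraries was sequenced by the authors, aligned with TopHat2 2.1.0 (Bowtie) to mouse build mm9 and counted per gene name with HTSeq 0.11.2 without regard to strand; the deposited files hold these raw counts, 1 file per library, and the annotation used here for positions and exon lengths was GENCODE M1 (NCBIM37). The members and the gene lists were chosen with earlier results of these data known. From each file 5 summary entries, 1 entry with no name (0.00544% of counts) and 206 rRNA genes (0.977%) were removed. Groups followed the sample labels. Genes with at least 10 counts in the smallest group size and 15 in all (filterByExpr) were tested, 16183 in number, in 1 model of the 4 groups with edgeR 4.0.16 in R 4.3.3 (TMM scaling, quasi-likelihood F-test, Benjamini-Hochberg adjustment over all tested genes, threshold 0.05). The SE was derived from the fold change and its F value, and 95% intervals are 1.96 SE wide on each side. CPM used the TMM-scaled library size, and RPKM divided it by exon length. A gene is named with its value in every library if called in any of the 6 contrasts or among Cldn5, Pecam1, Cdh5, Kdr, Mfsd2a, Plvap, Fzd4 and Ndp, and up to 3 called genes are named per pathway list and contrast. The procedure was tested on simulated counts. With 3 to 6 libraries a group, depth and number limit the precision for genes of a few reads. DESeq2 1.42.0, other filters and scalings, a replicate block and leaving out libraries were alternatives. Proteins were not used here, and 1 gene of a marker list, with the sum of that list, is not reported here.

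Replicate numbers are shared between the groups. The check for pairing compared same-numbered libraries of different groups by their deviations from the group means: 4 of 22 pairs correlated above 0.1 (range -0.332 to 0.345), so the numbers were not taken to pair the libraries.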

Additional observations from a re-analysis of the deposited data

Results flagged for a closer look

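The interaction of NACET with genotype, a test of the difference between its effects in Akita and WT, was called for 3 of 32 tested members, all positive, beside 20.3% of all genes called and 10.1% called positive, so the share is no larger among the members than among all genes. The log2 difference was 2.83 for Cldn5, 2.17 for Eng and 1.26 for Esam (edgeR).

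In 14 of 111 sets of 4 to 6 libraries of 1 group, 1 library stood apart from the rest by Dixon's criterion, which chance alone meets in about 1 of 20 for continuous values. That rate does not hold for genes of a few reads, where several libraries tie, such as Sox18 (1 read against 0), Erg (0 against 2) and Esm1 (7 against 0), so the 14 are not set against it. In Akita, replicate 2 was high for Cdh5 (0.290 CPM) and Sox17 (0.695 CPM), replicate 1 was high for Vwf (0.701 CPM), Esm1 (0.491 CPM) and Sox18 (0.0701 CPM), and replicate 4 was low for Eng (0.414 CPM). In Akita + NACET, replicate 5 was high for Lrp5 (5.22 CPM) and Abcg2 (11.2 CPM) and had no read of Erg (0.0 CPM). In WT + NACET, replicate 4 was high for Pecam1 (3.06 CPM), Sox7 (0.568 CPM) and Ly6c1 (2.16 CPM), and replicate 1 for Lrp5 (7.12 CPM) and Sox18 (0.0614 CPM).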

How the results depend on the processing

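The counts of called members were 3 for Akita vs WT, 4 for Akita + NACET vs Akita, 0 in Akita + NACET vs WT + NACET and 3 for the interaction. They depended on the processing, and the cause was not tested. The shares of all genes called, 7.64%, 9.65%, 13.3% and 20.3%, moved too. The members were 3, 7, 2 and 4 with DESeq2 over all groups (13.7%, 15.8%, 17.6% and 22.6% of all genes), and 4, 8 and 3 with DESeq2 on the 2 groups of each of the first 3 comparisons (8.08%, 11.2% and 3032 of 15967 genes), where edgeR called 0, 3 and 0 (0.965%, 4.56% and 14.8%). The 4 that DESeq2 called on the WT and Akita libraries alone were Lrp5, Slco1a4, Slco1c1 and Eng, and not Cldn5. That fit gave an adjusted p to 22 members. A mean count of at least 50 left 16 members tested, and 1, 2, 0 and 1 were called (1280, 1509, 2194 and 3104 of 12204 genes). With the share of reads outside exons in the model, which did not overlap between Akita and WT or Akita + NACET, all were 0 (0.0%, 0.0%, 1.2% and 0.105%). With the replicate number as a block they were 1, 2, 1 and 6 (3.13%, 1.35%, 8.42% and 16.4%), a pairing that the check of same-numbered libraries did not bear out: 2 of 18 libraries correlated best with a library of their own number. Leaving out 1 library gave 0 to 3, 0 to 6, 0 to 2 and 2 to 10. Without the 4 libraries with lens transcripts, an alternative chosen after seeing the data, they were 2, 0, 0 and 4 (7.43%, 0.0%, 1.56% and 9.37%). WT + NACET vs WT and Akita + NACET vs WT had 0 in every alternative. No member's fold change past the threshold reversed its sign under any alternative run. DESeq2 size factors and keeping rRNA genes gave the same counts, and no filter gave 3, 3, 0 and 3. Depth limits the low members: Cdh5 was at 0 reads in 2 libraries, and Sox7, Erg, Esm1, Sox18 and Robo4 could not be tested in the main filter.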
